A study of Mus musculus with 16 samples.

Results

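The urea cycle genes Nags, Cps1, Otc, Slc25a15, Ass1, Asl and Arg1 were followed across 16 arrays of RNA from mouse fetal liver cell suspensions. A member was taken where a probe set of the value table was paired with that gene symbol and no other. This held for 6 of the 7 genes, among 19934 symbols measured in that way. By the rule a symbol with several such probe sets was to be represented by the one selected on its highest mean signal, but each of the 6 had 1, so no choice arose. Both probe sets of Ass1 were also paired with Gm5424, and no value is given for it. The genes were picked by name, with an earlier result for Cps1 in these data known, so Cps1 differences are given as a description, with a standard error and no p-value.

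The arrays covered 2 stages, E12.5 and E14.5, and 4 genotypes: WT, which is wild type; ERG Tg, which carries an ERG transgene; WT/GATA1s, which carries a knock-in of GATA1s, the short isoform of the blood transcription factor GATA1; and ERG/GATA1s, which carries both. In each of the 8 groups 1 array carried the label female and the other the label male; values are given in that order. The sources used here do not give the promoter that drives the ERG transgene, the number of GATA1s alleles, or whether each sample came from a single embryo or from several. The study asked how ERG acts together with either GATA1 isoform in the fetal liver. Nothing in the labels says that the 2 arrays of a group came from separate litters, so p-values measure only the spread between these samples.

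The urea cycle turns ammonia, released when amino acids are broken down, into urea. It is the textbook function of the periportal hepatocyte, and its genes are switched on in the liver during fetal life and rise again around birth. The cycle starts in the mitochondrion. Nags makes N-acetylglutamate, without which carbamoyl phosphate synthetase, the product of Cps1, is inactive. Otc joins carbamoyl phosphate to ornithine, and Slc25a15 carries ornithine into the mitochondrion and citrulline out. In the cytosol Ass1 and Asl turn citrulline into arginine, and Arg1 splits arginine into urea and ornithine.

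At E12.5 and E14.5 the liver is also the main site of blood formation, so hepatocytes are only some of the cells of the suspension. A bulk array cannot tell fewer hepatocytes from less RNA of a gene per hepatocyte. The mean log2 signal of 22 hepatocyte genes, such as albumin (Alb), the apolipoproteins and the fibrinogen chains, is therefore given beside the results as the hepatocyte level.

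The RefSeq promoter table (GRCm38.p6) held windows for 4 of the 7 genes: Otc, Ass1, Nags and Slc25a15. The window of Otc is shown because Otc had the largest stage difference of the 6 measured members. It covers the 175 bases before the annotated start, chrX:10252055-10252229 on the plus strand, 5′ to 3′, all in lower case because nothing in it is marked.
Otc: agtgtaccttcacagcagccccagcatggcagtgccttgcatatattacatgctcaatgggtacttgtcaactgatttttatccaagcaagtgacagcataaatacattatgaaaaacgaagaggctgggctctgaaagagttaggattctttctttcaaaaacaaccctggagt
A search of both strands of this window found no match to the HNF4 core CAAAGTC, the C/EBP motif TTGCNNAA, the HNF1 letters GTTAAT, the CRE letters TGACG or the GATA motif AGATAA. Beside it, the first 175 bases of 32817 RefSeq promoter windows were searched, counted from the upstream end. Those stretches were not cut to end at a gene start as the Otc bases were, so their place differs. Of them, 2.8% held the HNF4 letters, 7.2% the C/EBP letters, 4.6% the HNF1 letters, 10.3% the CRE letters and 7.5% the GATA letters. The absence of a match says only that these letters do not occur in this window.

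The values are log2 signals, with array medians from 4.79 to 4.94. A level of 3.74, the 30th percentile of all values, is called the dim level here. Of 28270 probe sets, 16258 test units, 1 per symbol or set of symbols, exceeded it on at least 2 arrays. All 6 measured members were among them. Xist and the Y-linked genes opposed the labelled sex on 3 arrays: the male-labelled arrays of E12.5 WT/GATA1s and E12.5 ERG/GATA1s, and the female-labelled array of E14.5 ERG/GATA1s. By these markers both arrays of each E12.5 group with GATA1s were female-like, and both E14.5 ERG/GATA1s arrays male-like. The fit used labelled sex as a covariate, which cannot take out a sex difference in those groups. The E12.5 WT and E14.5 ERG Tg arrays labelled male carried both Xist and Y-linked signal. The hepatocyte level was 7.24 to 8.52 at E12.5 and 9.19 to 10.05 at E14.5. It differed within E14.5 WT, with 9.19 on the array labelled female and 9.92 on the one labelled male. The mean of 6 markers of gut epithelium, which also expresses Cps1 and Otc, was 4.04 to 4.46 over the 16 arrays. It was 4.46 and 4.32 in E14.5 WT/GATA1s and 4.06 and 4.41 in E14.5 WT. Of these markers Fabp2 was higher at E14.5 by 1.48 ± 0.20 (SE), while Cdh17 (-0.42) and Cdx1 (-0.30) were lower. The mean of 4 bile duct markers was 4.40 to 5.21.

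Cps1 makes carbamoyl phosphate, the entry step of the cycle. On the 8 arrays at E12.5 its log2 signal lay between 3.48 and 3.93, about the dim level. At the later stage WT had 3.73 and 3.81 and ERG Tg 3.75 and 3.91. WT/GATA1s had 7.44 and 7.31, and ERG/GATA1s had 6.12 and 4.96. Cps1 therefore stood clear of the dim level only in the 2 E14.5 groups that carry GATA1s, and those 4 arrays lay above the other 12. The 2 ERG/GATA1s arrays were far apart, and both lay below both WT/GATA1s arrays.

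Nags makes the activator of the Cps1 enzyme. At E12.5 its signal ranged from 4.68 to 5.30 over the 8 arrays. At E14.5 WT had 5.10 and 5.50, ERG Tg 4.80 and 5.10, WT/GATA1s 5.87 and 5.74, and ERG/GATA1s 5.42 and 5.35. Here too the WT/GATA1s arrays were the 2 highest of all 16, but the 3 other E14.5 genotypes overlapped E12.5 or each other.

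Otc catalyses the step after Cps1. At E12.5 WT had 4.99 and 4.66, ERG Tg 5.10 and 4.55, WT/GATA1s 4.21 and 3.73, and ERG/GATA1s 4.31 and 4.12. At E14.5 WT had 6.11 and 7.14, ERG Tg 5.86 and 6.37, WT/GATA1s 7.30 and 7.43, and ERG/GATA1s 6.0 and 5.96. All 8 E14.5 arrays lay above all 8 E12.5 arrays, which was true of no other measured member. At E12.5 the 4 arrays with GATA1s lay below the 4 without it. At E14.5 the WT/GATA1s arrays were the highest, and the ERG/GATA1s arrays overlapped ERG Tg.

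Slc25a15, the ornithine carrier, was read at E12.5 as 6.27 and 6.56 (WT), 6.24 and 6.26 (ERG Tg), 5.72 and 6.05 (WT/GATA1s), and 6.20 and 5.69 (ERG/GATA1s). The E14.5 readings were 6.39 and 6.83 (WT), 6.47 and 6.42 (ERG Tg), 7.29 and 7.25 (WT/GATA1s), and 6.58 and 6.72 (ERG/GATA1s). As with Otc, the 4 E12.5 arrays with GATA1s lay lowest. By group mean the lowest and highest groups of Slc25a15 were thus 1 genotype, WT/GATA1s, at the 2 stages, as they were for Otc and Nags.

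Asl, which releases arginine from argininosuccinate, varied between 5.88 and 6.23 over the E12.5 arrays. The E14.5 WT arrays had 6.23 and 6.74, ERG Tg 6.29 and 6.39, WT/GATA1s 7.14 and 7.29, and ERG/GATA1s 6.81 and 6.92. At E14.5 all 4 arrays with GATA1s lay above all 4 without it, an order that Asl shared with Cps1 and Arg1.

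Arg1, the last enzyme of the cycle, was close to the dim level in most groups. It ranged from 3.69 to 4.09 at E12.5. The E14.5 WT arrays had 4.07 and 3.98, ERG Tg 3.98 and 3.93, WT/GATA1s 4.47 and 4.69, and ERG/GATA1s 4.14 and 4.09. The 2 WT/GATA1s arrays lay above all others, while the ERG/GATA1s values reached no higher than 0.05 above the highest E12.5 array.

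**Figure D1:**
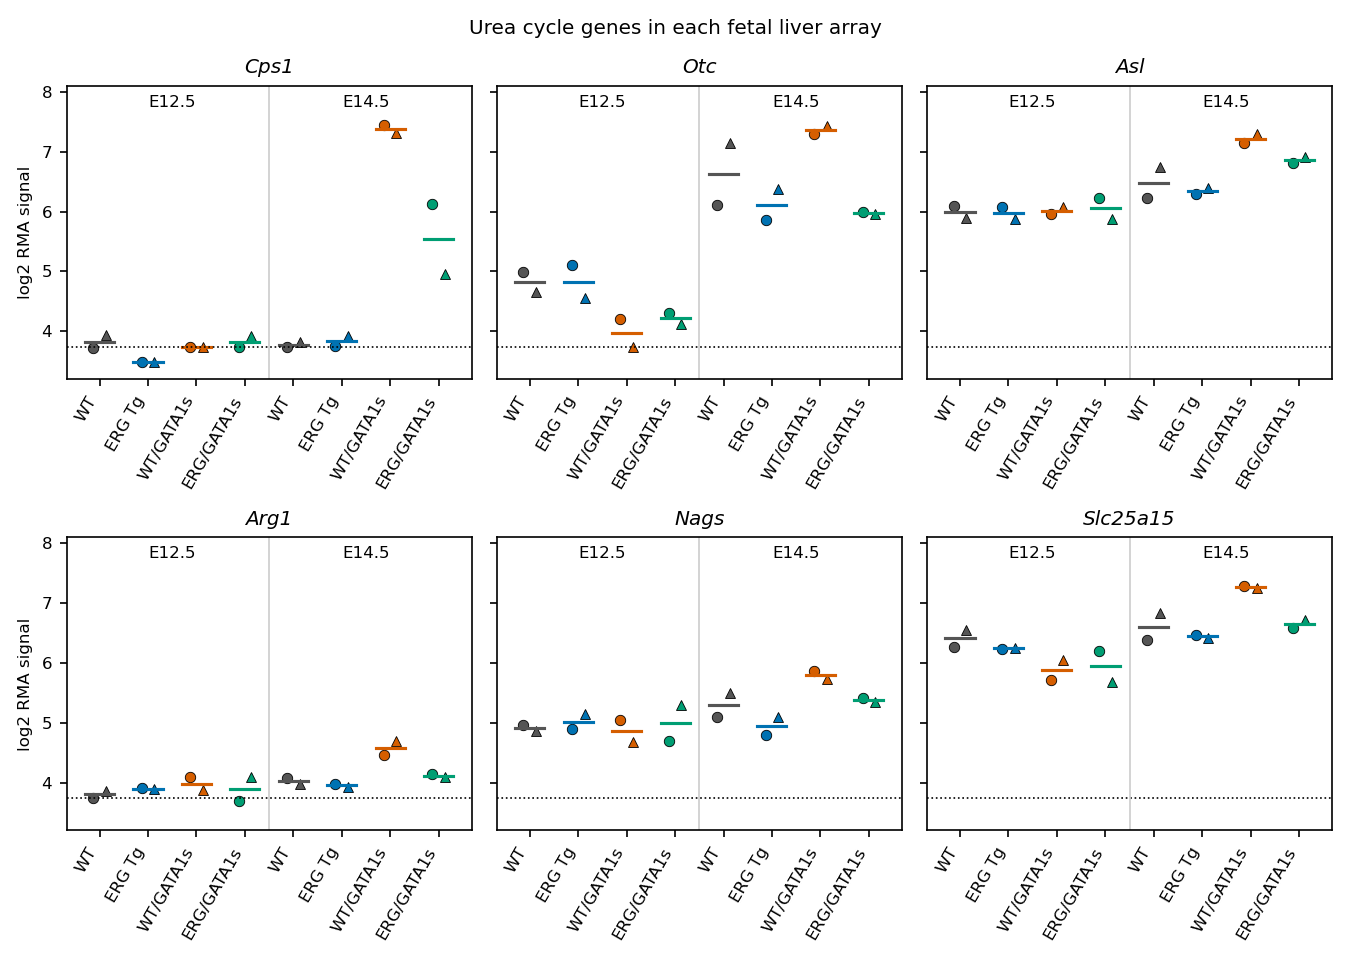
Log2 signal (vertical axes) of the 6 measured urea cycle genes on each of the 16 arrays, by stage and genotype group (horizontal axes). Circles are arrays labelled female, triangles arrays labelled male, bars group means of 2 arrays and the dotted line the dim level of 3.74. In every panel the 2 E14.5 WT/GATA1s arrays lie highest, with Cps1 at 7.44 and 7.31.

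For all 6 measured members, both E14.5 WT/GATA1s arrays lay above the other 14 arrays. The hepatocyte level had this order too, with 9.94 and 10.05 on those arrays and 9.92 on the next, the E14.5 WT array labelled male. Cps1 was picked with an earlier result known, so its place is a description. This order was seen in 528 of the 16258 test units, or 3.25%. It was seen in 9 of 13 genes of amino acid breakdown and glucose output, 6 of 13 liver transcription factors and 6 of 22 hepatocyte genes. Of 11 macrophage genes, 2 had it, as did 3 of 22 genes of nitrogen supply and transport. None of the 8 erythroid, 6 megakaryocyte, 6 endothelial or 12 arginine-use genes had this order.

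The neighbouring groups below the top were less distinct. In the order of group means, E14.5 ERG/GATA1s was next to the highest for Cps1, Asl, Arg1, Nags and Slc25a15, and its arrays did not overlap those of WT/GATA1s. For Otc the next group was E14.5 WT. The 6 lower groups of Cps1 had means from 3.49 to 3.83, and all but the lowest of them overlapped a neighbour. For Nags the 6 lower groups, from 4.87 to 5.30, each overlapped the next.

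The stage comparison took E14.5 minus E12.5 as a mean over the 4 genotypes. All 6 measured members were higher at E14.5. The 5 that were tested, all but Cps1, passed the threshold (limma, Benjamini-Hochberg adjusted p under 0.05), where 29% of all test units were higher and 56.2% differed in either direction. The median difference of the 6 was 0.67 on the log2 scale, against -0.03 over all test units. Otc rose by 2.06 ± 0.15 (SE), or 4.18-fold (limma adjusted p = 1.41e-07). The 4 other tested members rose less. Asl rose by 0.72 ± 0.09 (limma adjusted p = 1.68e-05), and Slc25a15 rose by 0.62 ± 0.09 (limma adjusted p = 0.000102). For both, E14.5 was higher in 8 of 8 pairs of equal genotype and labelled sex. Nags rose by 0.41 ± 0.10 (limma adjusted p = 0.00356, 6 of 8 pairs). Arg1 rose by 0.27 ± 0.07 (limma adjusted p = 0.00716, 7 of 8 pairs). The mean stage difference of Cps1 was 1.41 ± 0.13, higher in 7 of 8 pairs. Without the 3 arrays that oppose their labelled sex the 5 calls stood, with a difference of 1.91 for Otc.

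The hepatocyte level rose at the same time: 22 of 22 hepatocyte genes were higher at E14.5, with a median of 1.98. Otc, at 2.06, was close to this median, and the other members lay below it. With the hepatocyte level as a covariate no member passed the threshold, nor did any of the 16258 test units, and the Otc difference was -0.08. The hepatocyte level separates the stages on every array, so the stage and the hepatocyte level cannot be told apart in that fit.

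Within each genotype the stage difference varied. For Cps1 it was -0.06 in WT, 0.35 in ERG Tg, 3.65 in WT/GATA1s and 1.72 in ERG/GATA1s. Its mean over genotypes was therefore made almost entirely by the 2 genotypes with GATA1s. For Otc it was 1.80 in WT, 1.29 in ERG Tg, 3.40 in WT/GATA1s and 1.77 in ERG/GATA1s, a rise in all 4. Slc25a15 differed by 0.20 in WT and also in ERG Tg, by 1.39 in WT/GATA1s and by 0.71 in ERG/GATA1s. Each of the 6 members had its largest stage difference in WT/GATA1s. The mean hepatocyte level differed by 1.24 in WT, 1.21 in ERG Tg, 2.74 in WT/GATA1s and 2.19 in ERG/GATA1s.

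**Figure D2:**
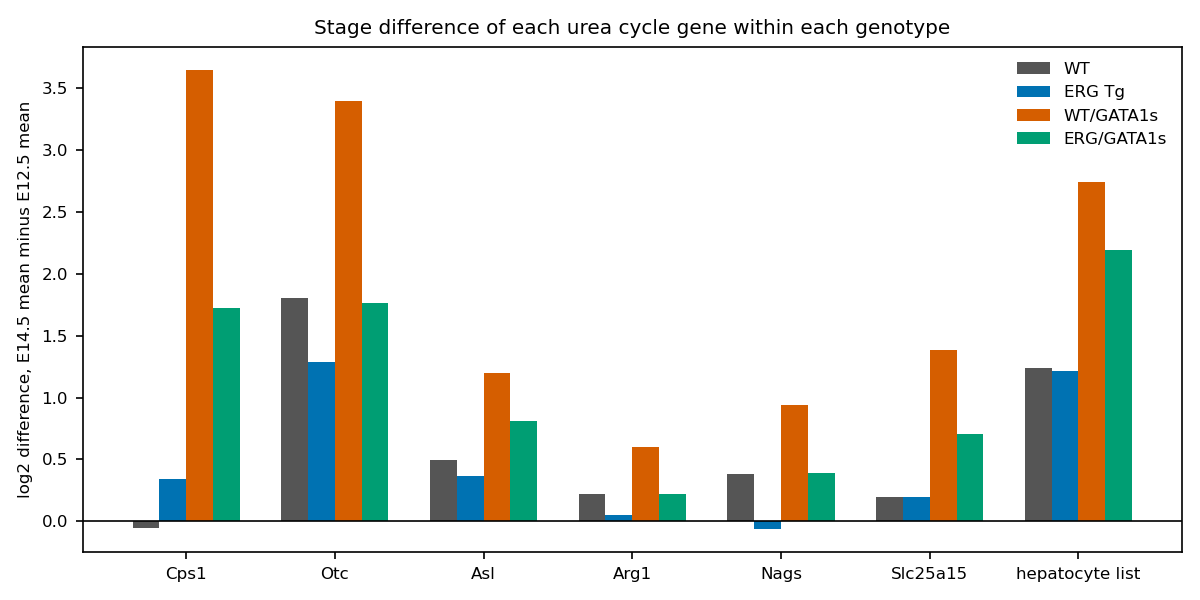
Difference in log2 signal, E14.5 minus E12.5, for the 6 measured members, by genotype, with the hepatocyte gene mean for comparison. WT/GATA1s has the largest difference for each member, from 0.60 for Arg1 to 3.65 for Cps1, and the hepatocyte mean differs by 2.74 there.

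At E12.5 no genotype differed from WT in any measured member past the threshold. For ERG Tg, 0% of test units passed with limma (666 had an unadjusted p under 0.05, none of them a member), and the 95% interval of each member's difference contained 0. For WT/GATA1s 1.33% of test units passed. Otc differed by -0.85 ± 0.29 there (limma adjusted p = 0.175). Slc25a15 differed by -0.53 ± 0.19 (limma adjusted p = 0.186). These were the 2 members below an unadjusted p of 0.05. Beside them, 11 of 22 hepatocyte genes were lower in WT/GATA1s, with a median of -1.17, and so was Hnf4a, a hepatocyte transcription factor (-1.04 ± 0.21, limma adjusted p = 0.0312). Without the 3 arrays that oppose their label, the Otc difference was -0.54 and that of Slc25a15 was -0.63. Leaving out either E14.5 WT array, which enters only the shared spread, brought Otc just under the threshold (limma adjusted p = 0.0474, difference -0.85). For ERG/GATA1s 0.00615% of test units, 1 gene, passed. Otc differed by -0.61 (limma adjusted p = 0.326). Slc25a15 differed by -0.47 (limma adjusted p = 0.267), and by -0.81 (0.0157) without the ERG/GATA1s array labelled female.

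At E14.5 ERG Tg did not differ from WT in any measured member past the threshold, where 1.69% of test units passed. The Cps1 difference was 0.06, with a 95% interval from -0.48 to 0.60. Otc differed by -0.51 (interval -1.14 to 0.12) and Nags by -0.35 (interval -0.78 to 0.08). The intervals thus leave room for a fall of Otc by 1.14 and do not show that the 2 genotypes were alike.

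In WT/GATA1s at E14.5 all 6 measured members were higher than in WT on both arrays, with a median difference of 0.69 against -0.015 over all test units. Cps1 was higher by 3.60 ± 0.25, a signal ratio of 12.2. Its WT arrays lay at the dim level, so this is a ratio of signals and not of transcript amounts. The other 5 members had smaller differences: Otc 0.74 ± 0.29, Asl 0.73 ± 0.18, Slc25a15 0.66 ± 0.19, Arg1 0.55 ± 0.15 and Nags 0.51 ± 0.20. None of these 5 passed the threshold that 1.07% of test units passed. Their limma adjusted p ranged from 0.0636 for Asl to 0.262 for Otc and Nags, and each had an unadjusted p under 0.05.

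For Otc, Asl, Slc25a15 and Arg1 the call turned on single arrays, while Nags passed in none of the alternatives. Asl and Arg1 also passed after further quantile normalization with all arrays kept. With the male-labelled E14.5 WT array left out, the one with the higher hepatocyte level, Otc was higher by 1.32 (limma adjusted p = 0.00906), Asl by 1.0 (0.00668) and Slc25a15 by 0.87 (0.034). Without the one labelled female, the Otc difference was 0.16 and that of Asl 0.46, and neither passed. Leaving out either E12.5 ERG/GATA1s array also brought Asl, Arg1 and Slc25a15 under the threshold. Either omission is the same fit for this comparison, because those arrays enter only the shared spread. Cps1 differed by 3.48 to 3.70 over all alternatives.

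The hepatocyte level of E14.5 WT/GATA1s was 9.94 and 10.05, against 9.19 and 9.92 in WT. The WT array labelled male therefore nearly matched the WT/GATA1s arrays in hepatocyte level. On it Otc was 7.14 against 7.30 and 7.43 in WT/GATA1s, and Cps1 was 3.81 against 7.44 and 7.31. Asl on that array was 6.74 against 7.14 and 7.29, Slc25a15 6.83 against 7.29 and 7.25, and Arg1 3.98 against 4.47 and 4.69. With the hepatocyte level as a covariate the Cps1 difference was 3.48, that of Asl 0.49 and that of Otc 0.24. None of 22 hepatocyte genes passed in this comparison, with a median of 0.49. The values on the WT array labelled male rest on that array alone. The part of the hepatocyte level in the member differences was not tested.

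Of the other lists, 5 of 9 immediate early genes were higher in WT/GATA1s at E14.5. The mean of that list was 6.87 and 7.14 against 5.39 and 5.71 in WT, with Fosb higher by 3.31 ± 0.23 (limma adjusted p = 1.03e-05). In E14.5 ERG/GATA1s it was 7.14 and 7.20, and at E12.5 it lay between 7.06 and 8.12 in all 4 genotypes, where Cps1 was at the dim level. The macrophage list was 6.81 and 6.99 in WT/GATA1s against 6.74 and 6.99 in WT. The erythroid list stood at 10.23 and 10.13 against 10.79 and 10.43, and the megakaryocyte list at 9.30 and 9.76 against 8.62 and 8.75. The part of these shifts in the member differences was not tested.

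In ERG/GATA1s at E14.5 none of the 5 tested members passed, where 9.16% of test units differed from WT. Cps1 was higher by 1.77 ± 0.25, a signal ratio of 3.41. Without the ERG/GATA1s array labelled female, 1 of the 3 that oppose their label, the Cps1 difference was 1.16, and without the one labelled male it was 2.39. Otc went the other way, at -0.65 ± 0.29 (limma adjusted p = 0.224), and passed the threshold as lower in 3 of 29 alternatives. It reached -1.23 without the WT array labelled female (limma adjusted p = 0.0169) and -0.06 without the one labelled male. Asl was at 0.38 (limma adjusted p = 0.236), with 0.65 (0.0437) without the WT array labelled male. Arg1, Nags and Slc25a15 differed from WT by 0.04 to 0.09. This comparison and the one above share the 2 WT arrays.

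**Figure D3:**
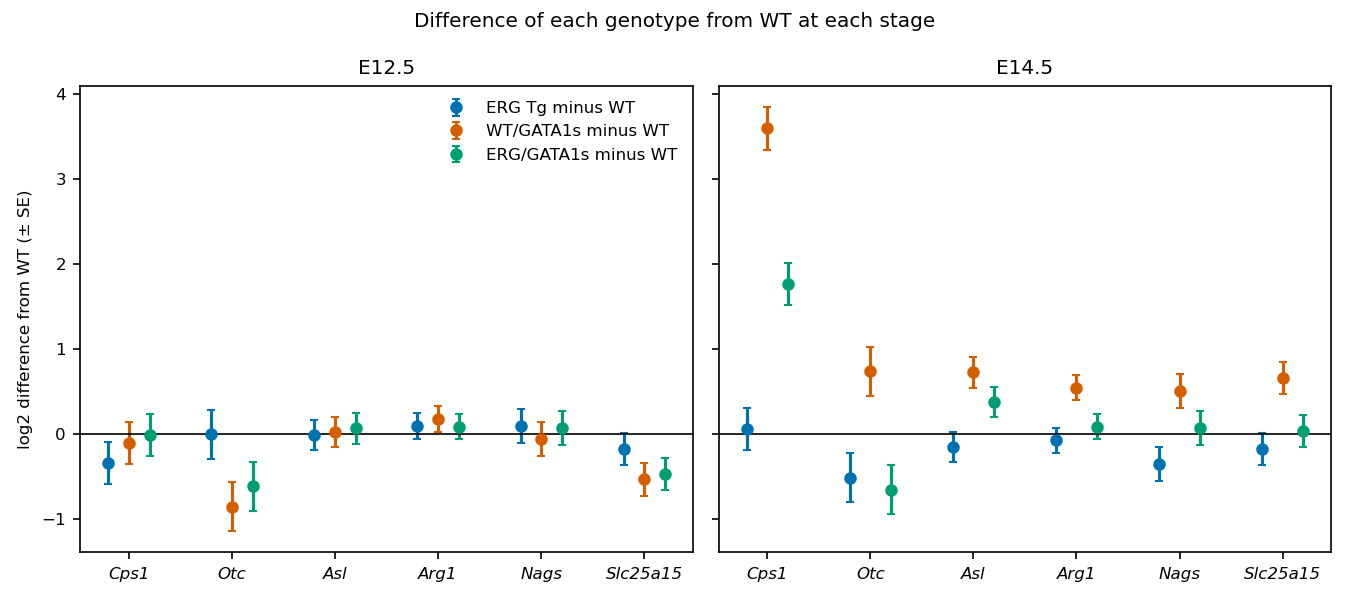
Difference in log2 signal from WT of the same stage for each measured member and genotype, with bars for the standard error of the limma fit. At E12.5 no member passed the threshold. At E14.5 Cps1 is higher by 3.60 in WT/GATA1s and by 1.77 in ERG/GATA1s, and the other members of WT/GATA1s lie between 0.51 and 0.74.

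Whether the genotype difference itself changed with stage was tested as the E14.5 difference minus the E12.5 difference. For WT/GATA1s none of the 5 tested members passed, where 0.351% of test units did, and Cps1 had a value of 3.70 ± 0.36. Otc had 1.59 ± 0.41 (limma adjusted p = 0.141), Slc25a15 1.19 ± 0.27 (limma adjusted p = 0.0859) and Asl 0.70 ± 0.25 (limma adjusted p = 0.329). Without the male-labelled E14.5 WT array Otc (2.18), Slc25a15 (1.40) and Asl (0.98) passed as well, and Slc25a15 did when either array of E12.5 ERG/GATA1s was left out (limma adjusted p = 0.0371). For Otc and Slc25a15 the value joins a negative difference at E12.5 with a positive one at E14.5. The hepatocyte list moved the same way, with a median of 1.69 and 5 of 22 genes past the threshold. For ERG/GATA1s none of the 5 passed either, where 0.609% of test units did. Cps1 had 1.78 ± 0.36 there, 1.16 without the E14.5 array labelled female, 2.39 without the one labelled male and 1.22 without all 3 arrays that oppose their label. For ERG Tg no member passed, where 0.228% of test units did.

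The 2 GATA1s genotypes and the 2 ERG genotypes were then set against each other, comparisons added after the data had been seen. At E14.5 all 6 measured members were lower in ERG/GATA1s than in WT/GATA1s, on both arrays, with a median of -0.54, and of the 5 tested members Otc passed, where 0.929% of test units were lower and 1.63% differed. Cps1 differed by -1.83 ± 0.25, and by -2.45 without the ERG/GATA1s array labelled female and -1.22 without the one labelled male. Otc fell by 1.38 ± 0.29, a 2.61-fold difference (limma adjusted p = 0.03). Otc no longer passed without any 1 of the 4 arrays compared, with an adjusted p of up to 0.207 by limma, or without the 3 arrays that oppose their label (0.264). It also missed the threshold with no filter on dim probe sets (limma adjusted p = 0.0636), with the hepatocyte level as covariate (0.0782) and with only the 4 arrays compared (0.195), where no test unit passed. Its difference stayed between -0.89 and -1.56. Slc25a15 differed by -0.62 (limma adjusted p = 0.142, and 0.0456 when either array of E12.5 ERG/GATA1s was left out), Arg1 by -0.46 (0.178), Nags by -0.42 (0.518) and Asl by -0.35 (0.584). The hepatocyte list had a median of -0.41 in this comparison, with 1 of 22 genes lower.

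Set against ERG Tg at E14.5, ERG/GATA1s had higher Cps1, by 1.71 ± 0.25, and 7.34% of test units differed, or none with only the 4 arrays compared. Asl differed by 0.53 ± 0.18 (limma adjusted p = 0.0934, and 0.0455 when either array of E14.5 WT was left out) and Nags by 0.43 ± 0.20 (limma adjusted p = 0.23). The Otc difference was -0.14, with an interval from -0.76 to 0.49. At E12.5 no member passed in either of the added comparisons, where 0% of test units differed from WT/GATA1s and 1.05% from ERG Tg.

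The members differed in how closely they followed the hepatocyte level. For Otc, the signal minus the hepatocyte level kept within a range of 1.10 over all 16 arrays, although the Otc signal itself ranged over 3.70. For Cps1 the same difference ranged over 3.61, almost as wide as the 3.96 of its signal. At E14.5 WT had -5.46 and -6.11, ERG Tg -5.59 and -5.58, WT/GATA1s -2.50 and -2.74, and ERG/GATA1s -3.59 and -4.45. On the 4 arrays with GATA1s the Cps1 signal stood closer to the hepatocyte level than on the 4 without it. At E12.5, where Cps1 was at the dim level and the difference mirrors the hepatocyte level alone, it ran from -5.03 to -3.34, a range that holds both ERG/GATA1s values of E14.5 and neither of WT/GATA1s. The same difference for Otc at E14.5 was -3.08 and -2.78 (WT), -3.48 and -3.12 (ERG Tg), -2.64 and -2.62 (WT/GATA1s), and -3.71 and -3.45 (ERG/GATA1s). The ERG/GATA1s arrays had a hepatocyte level of 9.71 and 9.41, inside the range of WT. They and the ERG Tg array labelled female had the 3 lowest Otc values of E14.5 relative to it. For Asl, Arg1, Nags and Slc25a15 the relative value was lower at E14.5 than at E12.5 on every array, as their signals rose less than the hepatocyte level. These values describe each gene against the same list and do not compare amounts between genes.

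**Figure D4:**
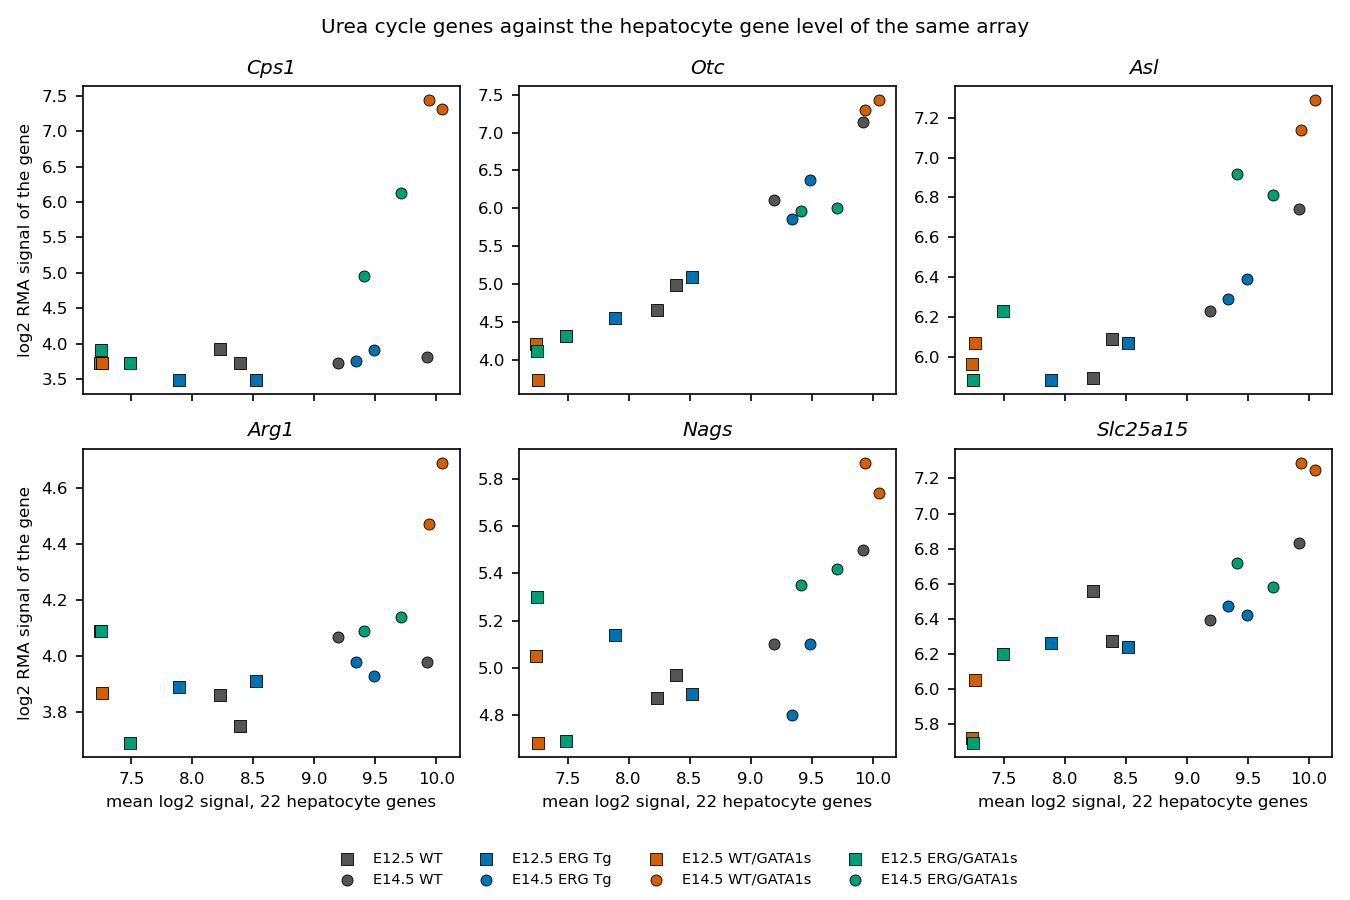
Log2 signal of the measured members (vertical axes) against the mean log2 signal of 22 hepatocyte genes (horizontal axes) on the 16 arrays, squares for E12.5 and circles for E14.5, coloured by genotype. Otc lies along the hepatocyte level, while Cps1 stays near 3.74 at hepatocyte levels up to 9.92 in WT and ERG Tg and reaches 7.44 in WT/GATA1s.

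The genes around the cycle changed in part, and the counts below stand beside the 29% of all test units that rose and the 27.2% that fell between the stages. Of 22 genes of nitrogen supply and transport, 11 rose and 3 fell between the stages. Those that rose most were Slc38a3, a glutamine transporter (1.74 ± 0.17), Slc7a2, a cationic amino acid transporter (1.73 ± 0.16), and Glud1, which releases ammonia from glutamate (1.16 ± 0.13). Those that fell were Slc7a1, another cationic amino acid transporter (-0.60), Arg2, the mitochondrial arginase (-0.33), and Slc25a2, a second ornithine carrier (-0.27). In the mean over genotypes Arg1 and Slc25a15 were thus higher at E14.5, and their paired isoforms Arg2 and Slc25a2 lower. Arg2 exceeded the dim level on only 3 arrays, Arg1 was close to it, and Slc25a2 lay between 3.81 and 4.53. The rises of Arg1 and Slc25a15 were 0.22 and 0.20 in WT, against 0.60 and 1.39 in WT/GATA1s. Of 12 genes that use arginine or ornithine the median difference was -0.01, and the counts were near those shares: 5 rose, led by Gamt of creatine synthesis (1.13 ± 0.15), and 4 fell, among them Srm of polyamine synthesis (-0.55), Aldh18a1 of proline and ornithine synthesis (-0.45) and Cad, which holds the carbamoyl phosphate synthetase of pyrimidine synthesis (-0.44).

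Genes of amino acid breakdown and glucose output rose more evenly, 11 of 13 between the stages with 1 lower and a median of 1.31. Igfbp1, an insulin-like growth factor binding protein (2.62 ± 0.22), Kmo of tryptophan breakdown (1.87 ± 0.15) and Hgd of tyrosine breakdown (1.86 ± 0.15) rose most. Tat, Tdo2 and G6pc, liver genes that come on around birth, stayed near or under the dim level, with highest signals of 3.80, 3.42 and 3.82. Of 13 liver transcription factors 10 rose, with Foxa3 at 1.66 ± 0.14, and 2 fell, among them Cebpb at -0.41.

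Between E14.5 WT/GATA1s and WT few of these genes passed. Fbp1 of glucose synthesis was higher by 0.96 ± 0.21, with group means of 4.52 and 3.55. Fbp1 exceeded the dim level of 3.74 on only 4 of the 16 arrays, and its WT mean lay below that level. Its difference is therefore given as a description. Cebpa, a transcription factor of hepatocyte metabolism, was higher by 0.96 ± 0.20 (limma adjusted p = 0.0365), with 6.54 and 5.59. Odc1, which takes ornithine into polyamines, was lower by a difference of -0.97 ± 0.16 (limma adjusted p = 0.00767), with 9.41 and 10.38. None of 22 genes of nitrogen supply passed there. In ERG/GATA1s against WT, Odc1 (-1.25) and Azin1, the antizyme inhibitor that spares it (-1.05), were lower. Oat, which breaks down ornithine, was lower (-0.52), and Car5b, a mitochondrial carbonic anhydrase, was higher (0.95). Car5b too exceeded the dim level on only 4 arrays, with a WT mean of 3.55, so its difference is a description. Igfbp1 was higher by 2.50 ± 0.44 and Cebpb by 0.83 ± 0.16. Against WT/GATA1s, the histidine breakdown genes Hal and Uroc1 were lower in ERG/GATA1s (-0.85 and -0.93), as Cps1 and Otc were, and Igfbp1 was higher (1.94). In ERG Tg at E14.5 Aqp9, a channel for urea and glycerol, was higher by 1.37 ± 0.26 (limma adjusted p = 0.0132).

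The genes with the pattern most like each member over the 16 arrays were taken by Pearson's r, as a description, since the arrays share stage and hepatocyte level. For Cps1 they were Gnmt (r = 0.941, Spearman's rho = 0.728), Fbp1 (r = 0.93), Necab1 (r = 0.928), Serpina1d (r = 0.928) and Kctd21 (r = 0.923). Without the 2 E14.5 WT/GATA1s arrays, r was 0.834 for Gnmt, 0.785 for Fbp1, 0.753 for Necab1, 0.877 for Serpina1d and 0.726 for Kctd21, whose rho over all arrays was 0.524. None of the 5 was another measured member. For Otc they were Ugt2b35 (r = 0.988), Slc39a5 (r = 0.987) and Aass (r = 0.986), which held at 0.98 to 0.987 without those arrays. Asl was most like Aldh1l1 (r = 0.971), Nags like Ngef (r = 0.942), Slc25a15 like Aco1 (r = 0.955) and Arg1 like Leap2 (r = 0.928, and 0.746 without the 2 arrays). Signals of Leap2 (3.01 to 3.95), Kctd21 (3.51 to 4.15) and Fbp1 (3.27 to 4.64) lay near or under the dim level on many arrays, which limits these likenesses. Among the 15 pairs of members r ran from 0.619 for Arg1 with Slc25a15 to 0.874 for Otc with Slc25a15, and it was 0.658 for Cps1 with Otc, the consecutive mitochondrial steps.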

How the data were processed

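Total RNA of fetal liver cell suspensions was biotin-labelled and hybridised to Affymetrix arrays, per the labels' protocols. The authors deposited log2 signals, 1 per probe set and array, produced with RMA per the submitters' processing notes. Its settings are not named there. Background correction could not be varied. Probe sets paired with at least 1 symbol were used, the one with the highest mean per symbol or set of symbols. Of the 16258 units kept, 15742 were paired with 1 symbol, as all measured members were. Units above the 30th percentile (3.74) on at least 2 arrays went into limma 3.58.1 (R 4.3.3) with 1 mean for each of 8 groups, labelled sex as covariate, all 16 arrays, 7 residual degrees of freedom, eBayes, two-sided, Benjamini-Hochberg over 16258 units, threshold 0.05. The small number of arrays limits the precision. The fit was tested on simulated data.

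The members and the gene lists were chosen with earlier results of these data known. The text names every member; for each other list, at most 3 genes per direction with the largest called difference; and the genes most like each member (5 for Cps1, 3 for others). Tat, Tdo2 and G6pc were named after their values were seen. Of the 16 lists, those of cell types served as markers. Alternatives were other filters, normalizations, covariates, weights and sets of arrays. For a group outside a comparison, leaving out either of its arrays is the same fit and changes only the shared spread. Figures were drawn with matplotlib 3.10.9.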

Additional observations from a re-analysis of the deposited data

Results flagged for a closer look

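Cps1 differed between the stages in its genotype effect. The E14.5 difference of WT/GATA1s from WT exceeded the E12.5 difference by 3.70 on the log2 scale, and that of ERG/GATA1s by 1.78. Both were taken up from the limma term for stage and genotype, and both share the 4 WT arrays. The members were chosen with Cps1 in view, so these are descriptions.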

How the results depend on the processing

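No paired analysis was possible because the labels give the groups no replicate numbers. Arrays of equal labelled sex were matched only to count directions, and labelled sex was a term of the fit. The counts below are of members under the threshold, 6 for stage in the main fit, and they include Cps1, which went through the same fit. In the main fit Cps1 was the only such member for WT/GATA1s and ERG/GATA1s at E14.5 and for their stage terms. The members were chosen with Cps1 in view, so these counts are a description and no support. With the hepatocyte level as covariate the count was 0 for stage and 0 for the stage term of WT/GATA1s, where no test unit passed. For WT/GATA1s at E14.5 the count was 3 after quantile normalization, where 257 test units passed against 174 in the main fit. It was 0 with only the arrays compared, where no test unit passed and fewer samples were left to estimate the spread. For ERG/GATA1s at E14.5 the count was 2 with the hepatocyte covariate, where 1697 test units passed against 1489 in the main fit. It was 0 with only the arrays compared, where no test unit passed. A setting added after the data were seen left out female-labelled E14.5 WT and male-labelled E12.5 ERG/GATA1s together. That setting left 1 array in each of those groups, and its counts are not given. With arrayWeights the stage term of WT/GATA1s had 2, where 93 test units passed against 57 in the main fit. The stage term of ERG/GATA1s had 0 with no filter, median centring, no sex term, Y-linked signal, hepatocyte covariate and arrayWeights. It also had 0 with all probe sets and with only the arrays compared. In those settings 4 to 88 test units passed, against 99 in the main fit. Differences reversed with the hepatocyte covariate for Otc in stage (-0.08), in WT/GATA1s at E12.5 (0.38) and in its stage term (-0.14), and for Asl in stage (-0.30) and in the stage term of WT/GATA1s (-0.12); the cause was not tested. With only the arrays compared, the added E14.5 comparisons had 0, and no test unit passed there. Leaving out 1 array at a time gave 6 to 6 calls for stage, 0 to 0 for ERG Tg in its 3 comparisons, 0 to 1 for WT/GATA1s and ERG/GATA1s at E12.5, 1 to 4 and 1 to 2 for these at E14.5, and 1 to 4 and 0 to 2 for their stage terms. In the added comparisons at E14.5, it gave 1 to 3 against WT/GATA1s and 1 to 2 against ERG Tg, and at E12.5 0 to 0 and 0 to 1. Signals near the dim level, as for Cps1 and Arg1, limit how far low levels can be told apart.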
